A study of Mus musculus with 7 samples.

Results

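Apoe and 9 other apolipoprotein genes (Apoc1, Apoc2, Apoc3, Apoc4, Apoa1, Apoa5, Apob, Apod and Apom) were examined in lungs of mice that lack Gata5, which encodes a zinc-finger protein that binds GATA sites and controls transcription. Members were the probe sets to which the platform annotation gives 1 of these gene symbols alone, which were 16 of the 45037 probe sets that are not controls and 10 of the 18193 genes named. RNA from the left lung of 8-week-old mice was hybridised to Affymetrix Mouse Genome 430 2.0 arrays, a short-oligonucleotide platform. The groups were 3 mice with the genotype Gata5 KO (KO) and 4 wild-type mice (WT), with 1 array per mouse, and the submitters describe the arrays of a group as biological replicates. The labels state neither strain nor allele, nor which exons were removed.

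Apolipoproteins are the protein coats of lipoprotein particles. They keep lipid in solution, serve as ligands for receptors of the LDL receptor family and switch on or restrain the enzymes that act on the particles. Most are made in liver and intestine, whereas apolipoprotein E is also made in many other tissues, with macrophages as a well-known source, and there it takes up cholesterol that the transporters ABCA1 and ABCG1 export. In the mouse Apoe, Apoc1, Apoc4 and Apoc2 lie side by side on chromosome 7, and Apoa1, Apoc3, Apoa4 and Apoa5 form another cluster on chromosome 9.

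The bases before the annotated starts are shown for Apoe and for 2 members that lie higher in KO lungs, because the protein missing here binds GATA sites. Capitals mark GATA, or TATC where the motif is on the other strand. The sequences are RefSeq's on GRCm38.p6, read 5′ to 3′ along the strand of the gene, 250 bases each, and end at the base before the start. Apoe has 3 annotated starts, all on the minus strand, and the outermost and the innermost are shown, at chr7:19699189-19699438 and chr7:19698399-19698648. The Apoc4 stretch is chr7:19681461-19681710 on the minus strand, and the Apoa5 stretch is chr9:46268358-46268607 on the plus strand.
Apoe, outermost start: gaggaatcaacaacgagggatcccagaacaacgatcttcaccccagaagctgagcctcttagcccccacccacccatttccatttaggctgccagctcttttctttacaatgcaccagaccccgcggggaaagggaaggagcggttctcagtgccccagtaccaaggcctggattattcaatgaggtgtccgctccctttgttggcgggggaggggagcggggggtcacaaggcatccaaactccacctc
Apoe, innermost start: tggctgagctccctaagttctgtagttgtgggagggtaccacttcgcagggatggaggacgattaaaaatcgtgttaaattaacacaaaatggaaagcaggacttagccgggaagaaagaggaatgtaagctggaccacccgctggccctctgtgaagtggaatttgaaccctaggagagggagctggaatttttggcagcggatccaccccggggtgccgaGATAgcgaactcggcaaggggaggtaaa
Apoc4: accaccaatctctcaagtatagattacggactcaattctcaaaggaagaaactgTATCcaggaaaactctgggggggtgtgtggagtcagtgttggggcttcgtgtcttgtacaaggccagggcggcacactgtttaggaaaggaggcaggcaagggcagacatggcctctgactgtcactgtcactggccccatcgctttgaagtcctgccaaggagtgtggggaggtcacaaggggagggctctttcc
Apoa5: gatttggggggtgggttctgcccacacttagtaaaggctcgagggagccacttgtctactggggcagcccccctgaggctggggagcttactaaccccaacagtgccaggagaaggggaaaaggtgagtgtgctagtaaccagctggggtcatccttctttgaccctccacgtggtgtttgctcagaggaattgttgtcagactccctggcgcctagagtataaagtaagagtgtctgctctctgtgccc

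GATA stood before 1 of the 3 Apoe starts, the innermost, where its first base lay 28 bases before the start, and TATC stood before Apoc4 with its first base 196 bases before the start. Searched on both strands over windows from 250 bases before to 50 bases after a start, GATA was present in 6 of the 11 windows of 8 members, and in 57.9% of all 32851 windows. A motif of 4 letters is therefore common in such windows. The longer AGATAA was in none of the 11 member windows and in 11.2% of all windows, and TGATAA was in 2, those of Apoc2 and Apoa1, and in 9.05% of all windows. Both longer motifs hold the shorter one. Other longer forms were not searched, among them AGATAG, the letters in which the Apoe GATA stands. The half-site of many nuclear receptors, AGGTCA, was in 2 member windows, those of Apoc2 and Apoc4, and in 16.3% of all. Apoc1 and Apoc3 had no window in the table. A match is a stretch of letters, and these data do not measure binding.

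Apoe was lower in every KO lung than in every WT lung. Its single probe set, 1432466_a_at, had log2 levels of 6.80, 5.83 and 6.47 in KO lungs, against 7.94, 8.27, 7.75 and 7.99 in WT lungs. The highest KO lung thus stayed below the lowest WT lung, and KO replicate 2 was the lowest of all. KO lungs averaged 6.37 ± 0.49 (SD, n = 3), against 7.99 ± 0.21 (SD, n = 4) for WT lungs, a log2 change of -1.62 (95% interval -2.11 to -1.13, SE 0.21). Apoe thus fell 3.08-fold in KO lungs (95% interval 2.19 to 4.31, limma adjusted p = 0.00648). The model in limma borrows the spread of all genes for each, and p-values were adjusted over all genes tested by the Benjamini-Hochberg method, with 0.05 as the threshold for calling a rise or a fall. Genes were tested where their mean level reached the 40th percentile of all probe sets, a log2 level of 5.47. The exact two-sided permutation p was 0.0286, the smallest that the 35 splits of 7 arrays into 3 and 4 can give. Among 13285 genes tested only 3 fell further, and 32 genes, or 0.241%, were at least 2-fold lower in KO. In whole lung, fewer cells that make Apoe and less Apoe RNA per cell cannot be told apart.

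**Figure D1:**
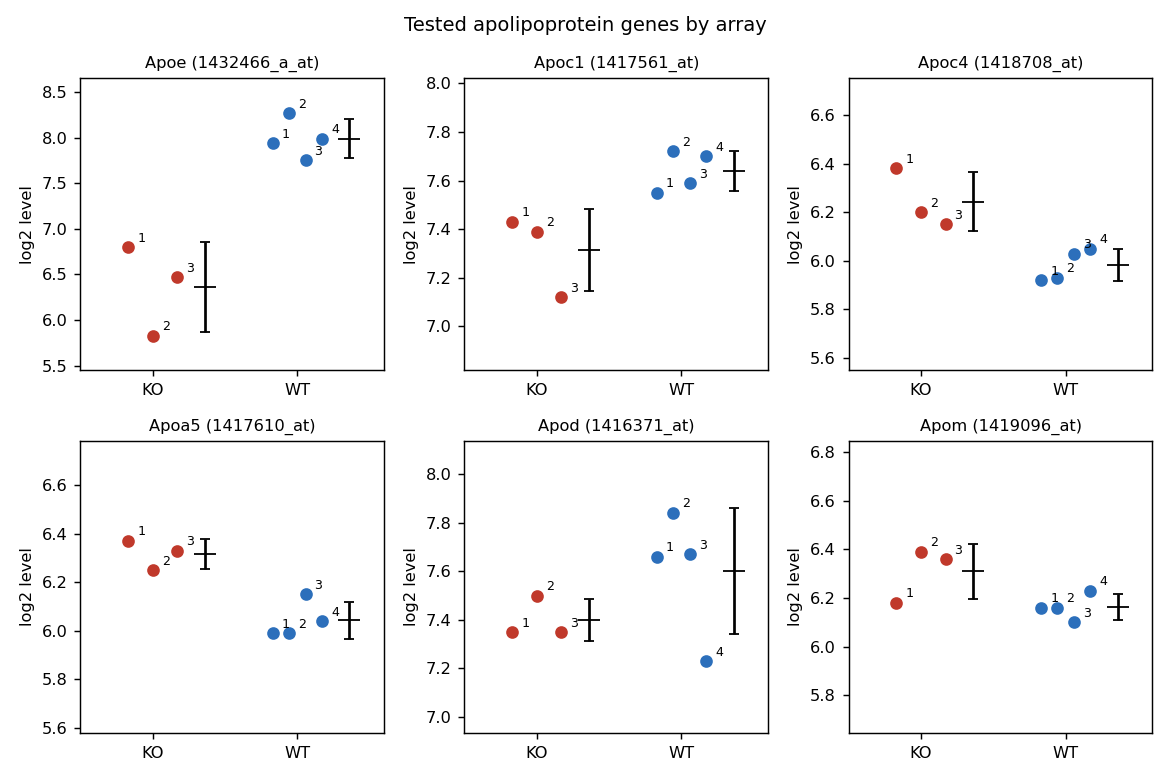
Log2 level of the 6 apolipoprotein genes that passed the level filter, by array, with KO left of WT. Points are single lungs with their replicate numbers, and the bar beside them is the mean ± SD (n = 3 KO, n = 4 WT). Each panel has its own vertical range. Apoe lies between 5.83 and 6.80 in KO lungs and between 7.75 and 8.27 in WT lungs, and the Apod and Apom groups overlap.

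The fall of Apoe did not rest on 1 lung. With each array left out in turn, the log2 change lay between -1.84 and -1.35, and the limma adjusted p was at most 0.0232. It was nearest to 0 without KO replicate 2. It lay between -1.65 and -1.48 when the arrays were normalized again, weighted by quality, or fitted with another filter, probe set rule or variance model. Of 4 differences between control probe sets that read RNA quality, 3 also separated the groups, and the Gapdh 3′ to 5′ difference did not (6.46 on KO and 6.49 on WT arrays on average, exact permutation p = 0.686). For beta-actin, the signal at the 3′ end lay above that at the 5′ end by 4.74, 5.39 and 4.76 log2 units on KO arrays, against 4.31, 3.88, 4.27 and 3.94 on WT arrays, without overlap (exact permutation p = 0.0286). For Gapdh, the 3′ signal lay above the mid-transcript signal by 3.85, 4.31 and 3.88 on KO arrays and by 3.33, 3.35, 3.68 and 3.51 on WT arrays, again without overlap. KO replicate 2, the lung with the least Apoe, had the largest of both differences. The beta-actin 3′ signal lay above the mid-transcript signal by 2.84, 2.89 and 3.34 on KO arrays and by 2.56, 2.47, 2.41 and 2.23 on WT arrays. That difference was largest in KO replicate 3. With the beta-actin 3′ to 5′ difference as a covariate the Apoe log2 change was -0.68 (limma adjusted p = 0.233), and with the Gapdh difference it was -0.80 (limma adjusted p = 0.140). With the 3′ to middle difference of beta-actin it was -1.72 (limma adjusted p = 0.250). Of all 13285 genes, 0 passed in limma with the first of these covariates (2204 at unadjusted p under 0.05), 5 with the Gapdh one (2726) and 0 with the last (1742). These 3 differences separated KO from WT arrays, so RNA quality and genotype cannot be told apart here. The 2 WT mice with mouse numbers nearest to the KO mice gave an Apoe log2 change of -1.74 (limma adjusted p = 0.0741), where 0 of all genes passed and 2791 had unadjusted p under 0.05.

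**Figure D2:**
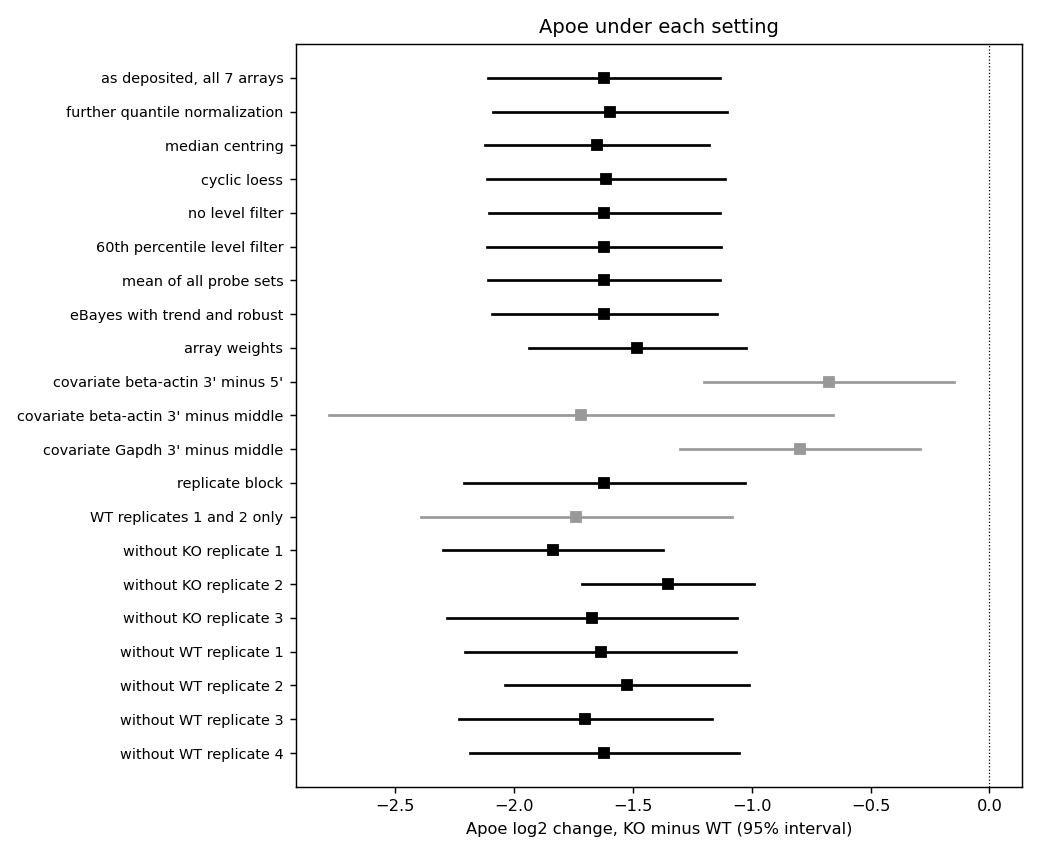
Log2 change of Apoe, KO minus WT, with its 95% interval, under the deposited values and each alternative. Black squares passed at adjusted p under 0.05 and grey squares did not. Every estimate is below 0, from -1.84 without KO replicate 1 to -0.68 with the beta-actin 3′ to 5′ difference as a covariate.

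Gata5 itself lay under the level filter. Its probe set 1450126_at read 4.98, 4.71 and 5.15 in KO lungs, against 5.32, 5.53, 5.85 and 5.47 in WT lungs, without overlap (log2 change -0.60, limma adjusted p = 0.0336 over all probe sets). The other, 1450125_at, differed by -0.26 (limma adjusted p = 0.0993 over all probe sets). The call at 1450126_at was lost without any 1 of 5 arrays, KO 1 and 2 and WT 2, 3 and 4 (log2 change -0.62 to -0.48). Whether either lies in the deleted exons is not given. WT replicate 4 stood apart in Xist, the X-inactivation RNA, at 12.72 against 6.31 to 6.48 on the other 6 arrays. Leaving it out left Apoe at -1.62 (limma adjusted p = 0.0228). Median levels of the 7 arrays were 6.10 to 6.15. Of 7 tested lung markers 1 fell and 6 did not pass. Scgb1a1 and Ager, the brightest of them, read 14.54 and 14.12 in KO and 14.49 and 14.14 in WT lungs on average, while Nkx2-1, a transcription factor of lung epithelium, lay under the filter at 5.26 in KO and 5.14 in WT. The one that fell was Cldn18, a tight junction protein of alveolar epithelium, with a log2 change of -0.95 (limma adjusted p = 0.0140) and of -1.01 at its second probe set (limma adjusted p = 0.00407 over all probe sets). With the control covariates its log2 change was -0.76 to -0.38 and did not pass.

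The other apolipoproteins differed little between the groups, and in both directions. Of the 10 members, 6 passed the level filter and entered the test across genes, and 4 of those 6 passed: Apoe and Apoc1 were lower in KO, Apoc4 and Apoa5 higher. Over all tested genes 15.6% passed, 10% lower and 5.56% higher in KO. The median log2 change of the 6 was -0.03 and that of all tested genes -0.003. Of the 16 probe sets, tested together with all others without a level filter, 2 passed, those of Apoe and Apoa5, against 9.89% of all probe sets (6.37% lower and 3.53% higher in KO). Groups did not overlap for 6 of the 16, which were 2 lower and 4 higher in KO, against 23.4% of all probe sets in either direction and 11.7% higher. The calls of Apoc1 and Apoc4 did not hold in the fit over all probe sets, and that of Apoa5 did.

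Apoc1 encodes a small exchangeable apolipoprotein that inhibits lipoprotein lipase and lies next to Apoe. Its log2 levels were 7.43, 7.39 and 7.12 in KO lungs, against 7.55, 7.72, 7.59 and 7.70 in WT lungs. The groups did not overlap, as was so for 29.6% of tested genes (17.5% lower and 12.1% higher in KO), but the gap between them was narrow. Apoc1 fell 1.25-fold (log2 change -0.33, limma adjusted p = 0.0422). The call was lost without any 1 of the arrays other than KO replicate 1, at log2 changes of -0.37 to -0.23 and limma adjusted p between 0.0535 and 0.102. It was also lost over all probe sets (limma adjusted p = 0.0504). With the 3′ to middle difference of beta-actin as a covariate the log2 change was -0.003.

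Apoc4 and Apoc2 belong to the same cluster. Apoc4, a minor apolipoprotein of triglyceride-rich particles, had log2 levels of 6.38, 6.20 and 6.15 in KO lungs, against 5.92, 5.93, 6.03 and 6.05 in WT lungs. All KO lungs lay above all WT lungs, and Apoc4 rose 1.20-fold (log2 change 0.26, limma adjusted p = 0.0477). Without any 1 of the 7 arrays the call was lost, with log2 changes of 0.19 to 0.31 and limma adjusted p between 0.0570 and 0.115, and so it was after quantile normalization, median centring or cyclic loess. Apoc2, the activator of lipoprotein lipase, was under the level filter at 5.06, 4.57 and 4.62 in KO lungs, against 4.52, 4.54, 4.45 and 4.54 in WT lungs. The groups did not overlap, yet KO replicates 2 and 3 were close to WT (log2 change 0.24, limma adjusted p = 0.197 over all probe sets). Thus the cluster held 1 large fall, a small fall beside it and 2 members with higher KO means.

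**Figure D3:**
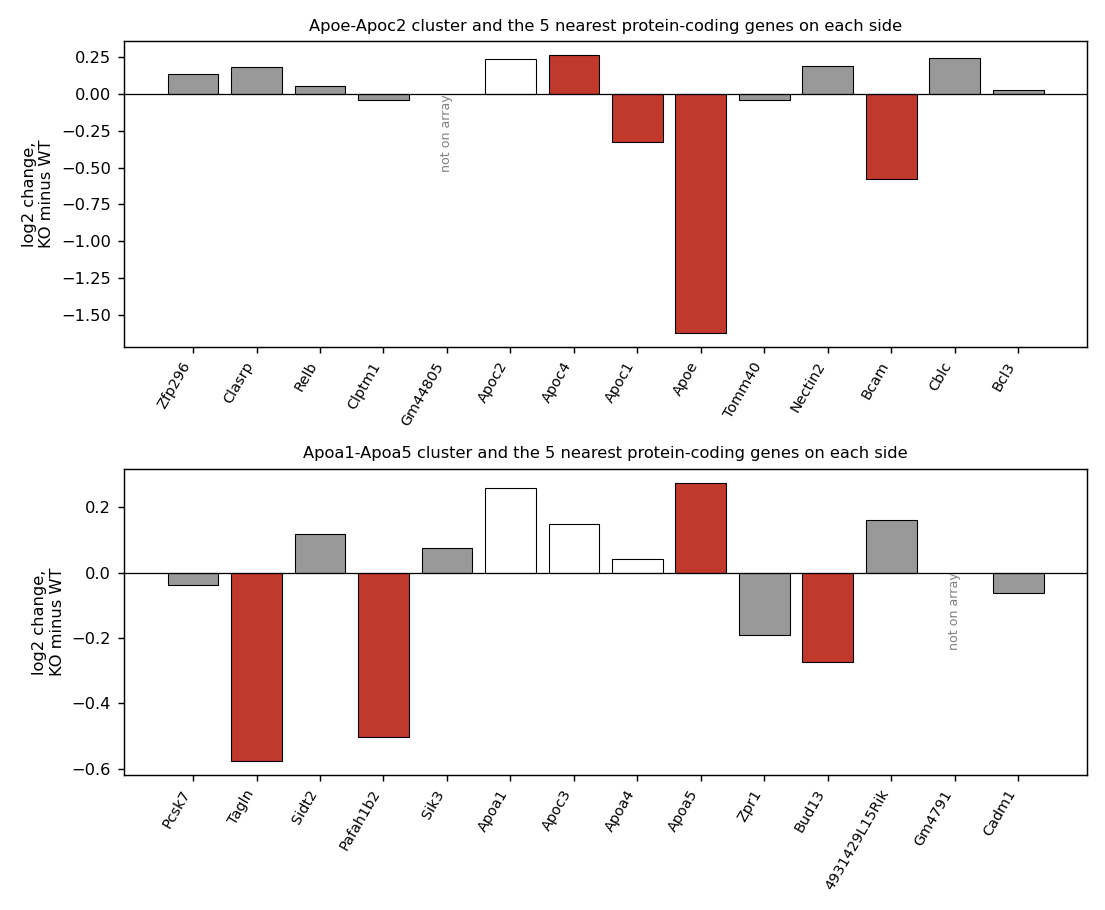
Log2 change, KO minus WT, of the genes of both apolipoprotein clusters and of the 5 nearest protein-coding genes on each side, in chromosomal order but not to scale. Red bars passed at adjusted p under 0.05, grey bars did not and white bars were under the level filter. Apoe at -1.62 stands beside Tomm40 at -0.04 and Apoc1 at -0.33. Bars of zero height marked in grey letters are genes with no probe set on the array.

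Genes around the Apoe cluster were measured for comparison. Tomm40, which encodes a channel of the mitochondrial outer membrane and is the next gene beside Apoe, differed by -0.04 (limma adjusted p = 0.733), a sign that was opposite without KO replicate 2 (0.03). Of the 10 nearest protein-coding neighbours 9 were tested, 1 fell and 8 did not pass, where 10% of all tested genes were called lower. That one was Bcam, a laminin-binding adhesion molecule, with a log2 change of -0.58 (limma adjusted p = 0.0199, and 0.0571 without KO replicate 3). Around the Apoa1 cluster 9 of 10 neighbours were tested and 3 fell, beside the same 10% of all tested genes. Of these Tagln, a smooth muscle actin-binding protein, fell with a log2 change of -0.58, Pafah1b2, a subunit of a phospholipase that inactivates platelet-activating factor, with -0.50 and Bud13, a splicing factor, with -0.27 (limma adjusted p = 0.00846, 0.00648 and 0.0247). The Bud13 call was lost without any 1 of 5 arrays (KO replicates 1 and 3, WT replicates 1, 2 and 4; limma adjusted p up to 0.0644). Of 3 further Pafah1b2 probe sets 1 fell, with a log2 change of -0.25 (limma adjusted p = 0.0454 over all probe sets), and the others differed by -0.07 and 0.08.

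Apoa5, a triglyceride-lowering apolipoprotein made in liver, had log2 levels of 6.37, 6.25 and 6.33 in KO lungs, against 5.99, 5.99, 6.15 and 6.04 in WT lungs. KO lungs lay above WT lungs without overlap, and Apoa5 rose 1.21-fold (log2 change 0.27, limma adjusted p = 0.0281). The call needed 5 of the arrays, KO 1 and 3 and WT 1, 2 and 4: without any 1 of them it was lost, at log2 changes of 0.25 to 0.27 and limma adjusted p between 0.0600 and 0.0731. The other members of its cluster were under the level filter. Apoa1, the main protein of HDL, has 4 probe sets. Their log2 changes were 0.23, 0.17, 0.19 and 0.26 (limma adjusted p between 0.135 and 0.162 over all probe sets), so none passed. At 1419232_a_at the levels were 4.16, 4.17 and 4.22 in KO lungs, against 3.72, 3.99, 4.06 and 4.06 in WT lungs, without overlap. The other 3 Apoa1 probe sets share this direction of the means, and their KO and WT ranges met or crossed. Apoc3, an inhibitor of lipoprotein lipase, read 5.51, 5.49 and 5.57 in KO lungs, against 5.32, 5.58, 5.33 and 5.27 in WT lungs, and WT replicate 2 exceeded all KO lungs (log2 change 0.15, limma adjusted p = 0.248 over all probe sets).

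Apob, the structural protein of LDL and chylomicrons, has 2 probe sets under the filter. Their log2 changes were 0.14 and 0.22, and neither passed (limma adjusted p = 0.266 and 0.236 over all probe sets). At 1457554_at the levels were 5.03, 4.52 and 4.88 in KO lungs, against 4.49, 4.63, 4.63 and 4.63 in WT lungs, so KO replicate 2 lay within the WT range. Without that lung the log2 change was 0.36 (limma adjusted p = 0.0330), the only setting under which this probe set passed.

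Apod and Apom are lipocalins, which carry small lipids in a barrel-shaped pocket. Apod, which binds arachidonic acid, had log2 levels of 7.35, 7.50 and 7.35 in KO lungs, against 7.66, 7.84, 7.67 and 7.23 in WT lungs. Replicates 1 to 3 of WT lay above all KO lungs, and WT replicate 4, the array with high Xist, lay below them. The log2 change was -0.20 (limma adjusted p = 0.304), and -0.32 without WT replicate 4 (limma adjusted p = 0.0568). The second Apod probe set had a log2 change of 0.08. Apom, the carrier of sphingosine 1-phosphate on HDL, had log2 levels of 6.18, 6.39 and 6.36 in KO lungs, against 6.16, 6.16, 6.10 and 6.23 in WT lungs. KO replicate 1 lay within the WT range, and the change of 0.15 did not pass (limma adjusted p = 0.171). Its second probe set differed by 0.10.

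**Figure D4:**
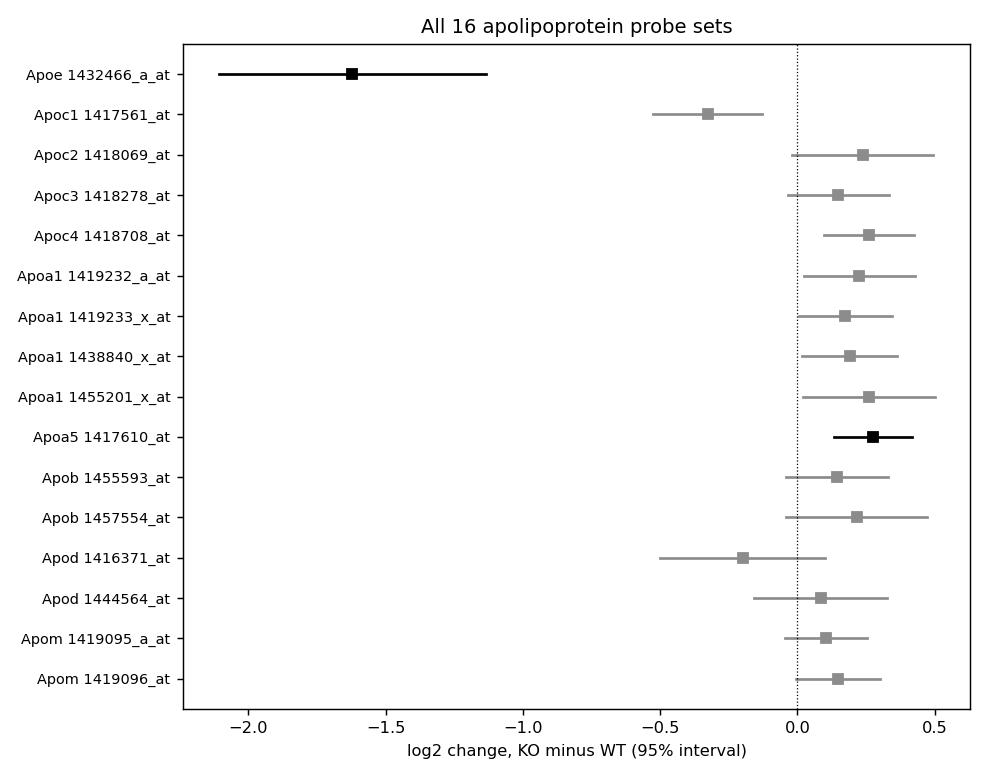
Log2 change, KO minus WT, with its 95% interval for all 16 apolipoprotein probe sets, from the fit over all probe sets. Black squares passed at adjusted p under 0.05 and grey squares did not. Apoe at -1.62 lies apart from the other 15, which run from -0.33 to 0.27.

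The direction of the small changes was that of other probe sets of their level. Of the 15 probe sets other than that of Apoe, 13 had a higher mean in KO than in WT lungs, as did 60.9% of all probe sets and 78.6% of those below the level filter. All of the 9 member probe sets below the filter had a higher KO mean, and 2 of them were higher without overlap, against 11.3% of all probe sets there. Ranked among the 1000 probe sets nearest in level on each side, from the largest fall to the largest rise, the change of Apoe lay at percentile 0.0499 and that of Apoc1 at percentile 14.8. Apoc4 lay at percentile 89.8, Apoa5 at 91.1 and Apoa1 1419232_a_at at 95.8. Apoc2 lay at 93.5, Apoa1 1455201_x_at at 93.1 and Apob 1457554_at at 89.6, and the remaining member probe sets lay between 25.2 and 84.6. The local median log2 change was -0.01 at the level of Apoe, -0.02 at that of Apoc1, and 0.07 at the levels of Apoc4, Apoa5 and Apoa1 1419232_a_at. A positive change was thus the more common direction at these low levels, while rises as large as those of Apoc4, Apoa5 and Apoa1 1419232_a_at lay in the upper part of the range.

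**Figure D5:**
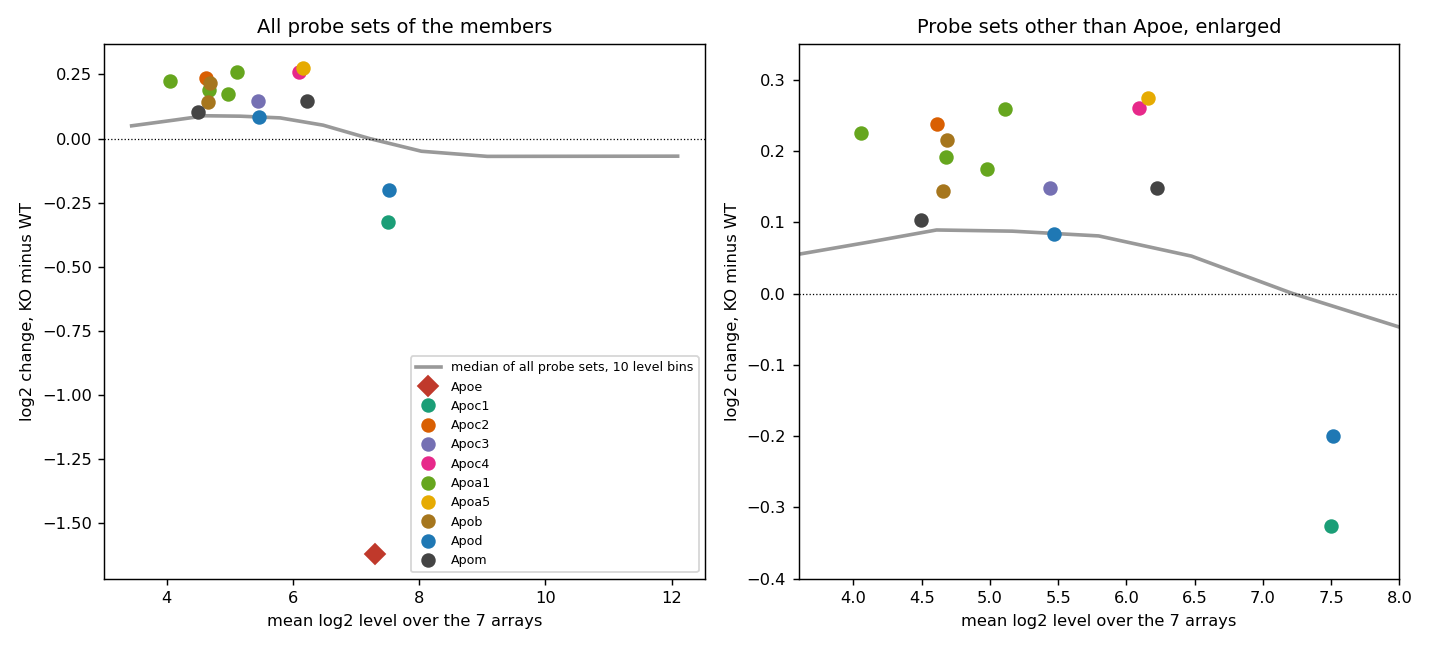
Log2 change, KO minus WT, against the mean log2 level over the 7 arrays, for all 16 probe sets (left) and enlarged without Apoe (right). The grey line joins the median change of all probe sets in 10 bins of level. The line is above 0 at low levels, where most member probe sets lie, and Apoe at -1.62 is far below it.

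Whether Apoe changed more than the other members was tested on the difference within each array. Apoe minus Apoc1 differed by -1.29, KO minus WT (95% interval -2.0 to -0.59), Apoe minus Apod by -1.42 (95% interval -2.26 to -0.58) and Apoe minus Apoa5 by -1.90 (95% interval -2.58 to -1.21), all on the log2 scale from least squares with 5 residual degrees of freedom. Over the 15 probe sets these differences ran from -1.90 to -1.29, and each separated the KO from the WT arrays. The same held for 99.2% of all 45036 probe sets set against Apoe, and 99.8% passed in limma, so the differences describe Apoe and single out no member. With the beta-actin 3′ to 5′ difference as a covariate, Apoe minus Apoc1 was -0.37 and Apoe minus Apod -0.28, and with the Gapdh difference they were -0.41 and -0.58. Neither passed in limma under these covariates. With the 3′ to middle difference of beta-actin they were -1.72 and -1.32, and both passed. Apoe minus Apoa5 passed under all 3 covariates, at -1.05 with the Gapdh difference and -2.01 with the 3′ to middle difference of beta-actin. Their limma p-values are too small, because every difference holds the same Apoe values, and are not given.

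Genes with the pattern most like that of Apoe over the 7 arrays were found by the root mean square difference of log2 levels, each gene centred on its own mean. The nearest were Gnb2, a G protein beta subunit, at 0.147, Bsg, the membrane glycoprotein basigin, at 0.189, Ccnd3, a D-type cyclin, at 0.205, Rabac1, a Rab acceptor protein, at 0.232 and Csrp1, a LIM-domain protein, at 0.271. All 5 were lowest in KO replicate 2, as Apoe was, which follows from their choice by likeness over the same 7 arrays. With the beta-actin 3′ to 5′ difference as a covariate the log2 changes were -0.71 for Gnb2, -0.41 for Bsg, -0.32 for Ccnd3, -0.01 for Rabac1 and -0.91 for Csrp1. None passed (limma adjusted p = 0.250 to 0.991), as was so for all 13285 genes under that covariate. Gnb2 had log2 levels of 7.31, 6.24 and 6.74 in KO lungs, against 8.49, 8.46, 7.92 and 8.20 in WT lungs. Without a covariate, log2 changes of the 5 lay between -1.53 and -1.25, and Rabac1 lost its call without WT 1, 2 or 4 (limma adjusted p up to 0.0616). Other probe sets of Ccnd3 differed by 0.01 and -0.04, and that of Csrp1 by 0.09. Among the members Apoc1 came closest, at 0.709 and rank 1137 of the genes, and Apod followed at 0.790 and rank 3153. Apom, Apoc4 and Apoa5 were at ranks 10724, 11752 and 11945.

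Most receptors and uptake proteins of lipoproteins did not pass. Of 11 tested, 2 rose, 1 fell and 8 did not pass, where 15.6% of all tested genes passed, with a median log2 change of -0.02 against -0.003 over all genes. Lrp1, a large endocytic receptor for Apoe-rich remnants, had log2 levels of 9.51, 9.33 and 9.37 in KO lungs, against 9.90, 10.07, 9.77 and 9.96 in WT lungs. It fell with a log2 change of -0.52 (limma adjusted p = 0.00902), and a second probe set differed by 0.08. Sorl1, a sorting receptor that binds Apoe, rose by 0.33 and Sdc1, a heparan sulfate proteoglycan that takes up remnants, by 0.20 on the log2 scale at the probe sets tested (limma adjusted p = 0.0136 and 0.0436). One further probe set of each fell, that of Sorl1 with a log2 change of -0.45 and that of Sdc1 with -0.34 (limma adjusted p = 0.0229 and 0.0174 over all probe sets). The other Sorl1 probe set differed by 0.22 and the other 2 of Sdc1 by 0.04 and 0.09, and none of these passed. The Sdc1 call was lost without any 1 of the arrays other than KO replicate 1 (limma adjusted p up to 0.106). Cd36 and Lrpap1, the brightest of the list, differed by -0.22 and -0.02.

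Cholesterol export and HDL remodelling showed 1 change among 12 tested genes, where 15.6% of all tested genes passed. Npc1, which moves cholesterol out of lysosomes, had log2 levels of 7.54, 7.67 and 7.28 in KO lungs, against 8.31, 8.26, 8.36 and 8.34 in WT lungs. It fell 1.77-fold (log2 change -0.82, limma adjusted p = 0.00526), and the call held without each array in turn. Under 4 of 20 alternatives the Npc1 call was lost, among them both beta-actin covariates (limma adjusted p up to 0.250). Its log2 change lay between -1.07 and -0.51 under all 20. The other 11 did not pass, among them Npc2 and Pltp, the brightest, at 0.02 and 0.07. Abca1 and Abcg1, the transporters that load apolipoproteins with cholesterol and named here after their values were seen, differed by -0.01 and -0.25 (limma adjusted p = 0.955 and 0.0583). The list's median log2 change was -0.05.

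Lipases and genes of triglyceride particle assembly held 4 falls among 13 tested genes, where 10% of all tested genes were called lower, and 9 did not pass. Their median log2 change was -0.24. Angptl4, a secreted inhibitor of lipoprotein lipase, fell with a log2 change of -0.78, and P4hb, a disulfide isomerase that is also a subunit of the triglyceride transfer protein, with -0.71 (limma adjusted p = 0.0363 and 0.0167). Lipg, endothelial lipase, fell with -0.40 and Lmf1, a factor that lipases need to mature, with -0.31 (limma adjusted p = 0.0269 and 0.0402). P4hb kept its call without each array in turn, but its log2 change was -0.06 with the beta-actin 3′ to 5′ covariate (limma adjusted p = 0.834) and -0.24 with the Gapdh one, where it did not pass either. The calls of Lipg (without KO replicates 2 or 3 or WT replicates 1 or 4), Lmf1 (KO 1 or 3, WT 1, 3 or 4) and Angptl4 (KO 2 or 3, WT 1, 2 or 4) were lost, at limma adjusted p up to 0.0727, 0.106 and 0.0887. Of 2 further Lipg probe sets 1 fell too, with a log2 change of -0.49 (limma adjusted p = 0.00977 over all probe sets), and the other, under the level filter, differed by 0.10. Further probe sets of Lmf1 and Angptl4, both under the filter, differed by 0.01 and -0.01. Lpl, lipoprotein lipase, and Sar1b, the brightest of the list, differed by 0.07 and 0.14.

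Transcriptional regulators of apolipoprotein genes held 1 rise and 4 falls among 20 tested, where 5.56% of all tested genes were called higher and 10% lower, with 15 that did not pass and a median log2 change of -0.04. Nr1h3 encodes the liver X receptor alpha, a sterol-activated nuclear receptor known to switch on Apoe and its cluster in macrophages. Its log2 levels were 6.15, 5.83 and 5.93 in KO lungs, against 6.77, 6.50, 6.55 and 6.73 in WT lungs. The groups did not overlap, and Nr1h3 fell 1.59-fold (log2 change -0.67, limma adjusted p = 0.00807), without losing the call to the omission of any array. Its call was lost under 4 of 19 alternatives, among them both beta-actin covariates (log2 change -0.76 to -0.46 under all 19, limma adjusted p up to 0.310). Zfpm2, counted among the 4 falls, is a Friend of GATA cofactor, and whether it regulates apolipoprotein genes was not tested. Its log2 levels were 5.66, 6.47 and 5.64 in KO lungs, against 6.76, 6.89, 6.91 and 7.19 in WT lungs. It fell with a log2 change of -1.01 (limma adjusted p = 0.0156, and 0.0553 without KO replicate 3), and a further probe set differed by 0.02.

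Cebpa, a transcription factor of liver, fat and myeloid cells, fell with a log2 change of -0.59 and Rora, an orphan nuclear receptor, with -0.42, while Srebf1, a regulator of fatty acid synthesis, rose by 0.23 (limma adjusted p = 0.0318, 0.0325 and 0.0446). Each lost its call without any 1 of 4 or more arrays: Cebpa without KO replicate 1 or WT replicates 1, 2 or 4, Rora without KO replicates 1 or 3 or WT replicates 1, 3 or 4, and Srebf1 without any array but KO replicate 1. The limma adjusted p then reached 0.0750, 0.0794 and 0.105. Of the 8 further Rora probe sets 3 fell, with log2 changes of -1.02, -0.52 and -0.41, and 1 rose, with 0.27 (limma adjusted p = 0.00319, 0.0365, 0.0362 and 0.0217 over all probe sets). The other 4 did not pass, at -0.24 to 0.21. Among 10 other tested genes with apolipoprotein names or roles 1 rose, Apol7a, with a log2 change of 0.32 (limma adjusted p = 0.0339, and up to 0.0923 without KO replicates 2 or 3 or WT replicates 1, 2 or 4). Clu, the apolipoprotein clusterin, and Naxe, the brightest of them, differed by 0.19 and -0.08 (limma adjusted p = 0.226 and 0.383). Sp1 and Foxa1, the brightest of the regulators, differed by -0.06 and -0.01 (limma adjusted p = 0.461 and 0.942).

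Markers of cells that could supply Apoe RNA were read beside it. Of 11 alveolar macrophage markers 0 passed in limma, where 15.6% of all tested genes passed. Of the same 11, 4 were lower and 0 higher at unadjusted p under 0.05, where 4622 of all 13285 tested genes had such a p in either direction. The log2 of the mean linear level of these markers was 10.16 to 10.54 on KO arrays and 10.43 to 10.68 on WT arrays. Of 12 markers of interstitial macrophages and monocytes, Csf1r, the receptor for macrophage colony-stimulating factor, rose with a log2 change of 0.33, C1qc, a chain of complement C1q, fell with -0.55 and 10 did not pass. Their mean level was 9.25 to 9.32 on KO and 9.02 to 9.13 on WT arrays. Csf1r was the brightest of this list, at 12.33 in KO and 12.01 in WT lungs on average, and weighs most in that mean. Further Csf1r probe sets differed by 0.26 and 0.05 and did not pass (limma adjusted p = 0.0635 and 0.631 over all probe sets). The median log2 change of the tested genes was -0.26 for the first list and 0.01 for the second, against -0.003 over all genes. The C1qc call was lost without any 1 of 5 arrays (KO replicates 1 to 3, WT replicates 1 and 4; limma adjusted p up to 0.0854).

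Of 13 fibroblast and lipofibroblast markers 4 fell, where 10% of all tested genes were called lower, and 9 did not pass, with a mean level of 11.35 to 11.58 on KO and 11.64 to 11.74 on WT arrays. These were Tcf21, a transcription factor of lung mesenchyme, at -0.75, Dcn, the proteoglycan decorin, at -0.46, Plin2, a lipid droplet coat protein, at -0.32 and Inmt at -0.25 on the log2 scale (limma adjusted p = 0.00865, 0.0166, 0.0141 and 0.0347). Dcn lost its call without KO replicate 3 (limma adjusted p = 0.0555), Inmt without any array but KO replicate 2 (limma adjusted p up to 0.0867), and further probe sets of Dcn and Tcf21 differed by 0.24 and -0.17. Of 9 type 2 cell markers 3 fell and 6 did not pass, with mean levels of 12.23 to 12.30 on KO and 12.40 to 12.59 on WT arrays. Beside the same 10% of all tested genes, falls were also called for 4 of 10 smooth muscle and pericyte markers (10.68 to 10.70 on KO and 10.60 to 10.70 on WT arrays) and for 3 of 7 mesothelial markers (9.35 to 9.45 on KO and 9.28 to 9.58 on WT arrays). The brightest markers weigh most in these means, Krt8 (log2 change 0.085) for mesothelium and Acta2 (0.165) for smooth muscle, and neither passed. The 3 mesothelial falls had log2 changes of -1.91 to -0.93. The median log2 change was -0.31 for the mesothelial list and -0.165 for the smooth muscle list. The part of these cell types in the fall of Apoe was not tested.

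Tissues that make most of the other members were read by their own markers. Of 4 tested liver markers 0 passed in limma, and 1 was higher and 0 lower at unadjusted p under 0.05. The higher one was Apoa2, itself an apolipoprotein gene, with a log2 change of 0.33 (limma adjusted p = 0.112). Over all 13285 tested genes, 4622 had an unadjusted p under 0.05 in either direction. The mean level of the liver list was 6.17 to 6.50 on KO and 6.01 to 7.01 on WT arrays. Cyp2e1, the brightest of that list, weighs most in it and read 9.46 in WT replicate 2, against 7.50 to 8.09 on the other WT arrays. The single tested marker of small intestine, Fabp1, differed by -0.37 on the log2 scale (limma adjusted p = 0.180), with list means of 5.71 to 6.27 on KO and 6.06 to 6.30 on WT arrays. For adipose tissue, 3 tested markers, and for Schwann cells and nerve, 5 tested markers, 0 passed in limma and 0 had unadjusted p under 0.05. Under the level filter lay 4 of the 8 liver genes and 5 of the 6 intestine genes on the array, as did Apoa1, Apoc3 and Apob.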

How the data were processed

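Total RNA of 7 left lungs was measured on 1 array each. The deposited table holds the authors' log2 levels, used here as they stand, with the log base taken from their range. The submitters' processing notes list Affymetrix Expression Console, RMA and MAS5, without saying which made the table. Genes were named from the platform annotation, updated from a RefSeq table of GRCm38.p6.

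A gene was read at its brightest probe set by mean, and 13285 of 18193 genes, those from the 40th percentile of level upwards (log2 5.47), were tested. The comparison of KO with WT used limma 3.58.1 (R 4.3.3; lmFit, eBayes, genotype as the only term), Benjamini-Hochberg adjustment and a threshold of 0.05. Members under the filter and further probe sets were tested in one such fit over all 45037. Single values had an exact two-sided permutation test. The fits were tested on simulated data. Figures used matplotlib 3.10.9 (Python 3.11.15). For arrays, their number limits the precision.

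Arrays with the same replicate number did not deviate together (correlations 0.0033, -0.042 and 0.035), so numbers were not taken as pairs. Members, lists and naming rule were chosen with earlier results of these data known. The rule took all member probe sets, list genes that passed and the 2 brightest of each list, 5 neighbours on each side of both clusters, the 5 genes most like Apoe, and Gata5. Most results for neighbours are given as counts in place of names. The same holds for the macrophage, fibroblast, type 2, smooth muscle, mesothelial, liver, adipose and nerve markers. Alternatives covered normalization, filter, probe set choice, variance model, array weights, control covariates, a replicate block, a WT subset and leaving out each array.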

Additional observations from a re-analysis of the deposited data

Results flagged for a closer look

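Single WT arrays stood apart from the other 3 WT arrays in 7 of 55 quantities examined, by the ratio of the gap to the range (Dixon's criterion). Chance alone marks about 1 group in 20, and KO groups of 3 were not examined. WT replicate 4 read 12.72 for Xist, against 6.31 to 6.44 on the other WT arrays, and 3.71 for the Y-linked Eif2s3y, against 9.30 to 9.38. On the same array Inmt was at 13.58, against 13.41 to 13.43, and Tomm40 at 5.86, against 6.01 to 6.04. WT replicate 1 was low in Apob at 1457554_at, at 4.49 against 4.63 on each other WT array, and in Pafah1b2, at 9.20 against 9.33 to 9.35. WT replicate 3 was low in Ccnd3, at 8.95 against 9.31 to 9.37. Apoe was not among them.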

How the results depend on the processing

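The fall of Apoe passed under the deposited values and under 16 of 20 alternatives, all but the 3 control covariates and WT replicates 1 and 2 only, and its direction was the same under all 20. Without each array in turn it ran from -1.84 to -1.35, the count of all genes that passed from 891 (without WT replicate 4) to 1951, and the count of members that passed from 1 to 2, against 2069 and 4. With the beta-actin 3′ to 5′ difference as covariate Apoe was at -0.68 and 0 genes and 0 members passed in limma. With the 3′ to middle difference of beta-actin it was at -1.72 with 0 and 0, with the Gapdh difference at -0.80 with 5 and 0, and with WT replicates 1 and 2 only at -1.74 with 0 and 0. With the replicate block 371 genes and 1 member, Apoe, passed (limma adjusted p = 0.0459), although the numbers did not pair the samples. After quantile normalization and with a 60th percentile filter, under which only 3 members were tested, 2 members passed. The share of passing genes higher in KO was 35.7%, and 56.9%, 25.5% and 46.7% after quantile normalization, median centring and cyclic loess. Of 1182 values of 63 further results (members, differences from Apoe, list genes and neighbours, but not the control differences), 897 kept direction and side of the threshold, 272 lost the call, 3 gained it and 10 changed sign. The differences from Apoe enter that count with limma p-values that are too small. Signs turned for Sdc1 with the mean of all probe sets (-6.25e-04). They turned for Cebpa (0.055), Tomm40 (0.078) and Gata5 1450125_at (9.80e-04) with the beta-actin 3′ to 5′ difference, and for Tomm40 (0.14) and Gata5 1450125_at (0.0070) with the Gapdh difference. They turned for Apom 1419095_a_at (-0.0022) and Apod 1444564_at (-0.11) with the 3′ to middle difference of beta-actin, for Apod 1444564_at with WT replicates 1 and 2 only (-0.033), for Tomm40 without KO replicate 2 (0.0275, and down to -0.08 without WT replicate 4), and, outside that count, for the Gapdh 3′ to 5′ control difference after quantile normalization (0.12). The causes were not tested. Settings for list genes, neighbours and likeness genes, and the least squares interval of the differences, were chosen after seeing the data. Dim members are limited by signal near background.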

Other observations

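Platelet and blood transcripts were read with the other lists. Of 3 tested 1 rose, where 5.56% of all tested genes were called higher, and 2 did not pass. Ppbp, the platelet basic protein, rose with a log2 change of 0.81 (limma adjusted p = 0.00935), while Alas2, the erythroid enzyme of heme synthesis, differed by -0.29 (limma adjusted p = 0.424). Pf4, a platelet chemokine named here after its values were seen, differed by 0.55 (limma adjusted p = 0.0677). Ppbp was not read under the alternatives.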
